A study of Mus musculus with 15 samples.

Results

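The regions described here are the 3′UTRs of mouse liver mRNAs that carried an unusually large number of ribosome profiling reads. A 3′UTR was taken when it had a mean of at least 5 reads per library and when its reads, summed over 14 libraries, made up at least 5% of the reads in the coding sequence (CDS) and 3′UTR together. With 1 transcript per gene (the transcript with most reads), 355 of 20428 3′UTRs met the rule. A further 1233 had a mean of at least 5 reads and a share under 5%. The rule uses read numbers, so the counts and shares in this section describe how the 3′UTRs were chosen and are given without a test.

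Ribosomes were isolated from whole liver of wild-type male C57BL/6N mice aged 8 to 10 weeks, and the RNA pieces they protected from RNase I were sequenced. The mice were held for 2 weeks in 12 h of light and 12 h of darkness, and killed every 4 h over a day after 24 h in constant darkness (DD). Circadian times CT0 to CT24 gave 7 groups of 2 mice and 14 libraries, all of the same strain and genotype and without other treatment. Total reads over 28167 transcripts ranged from 40593197 to 90458783 per library, and a read can be counted in several transcripts of a gene.

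A ribosome normally leaves the mRNA at the stop codon, where release factors free the protein and recycling factors split the ribosome. The 3′UTR is therefore largely empty of ribosomes, unless a ribosome reads through the stop codon, restarts downstream, or translates a second reading frame. The same stretch of genome may also hold a coding exon of another transcript, a gene on the other strand, or a small RNA, and reads from these can be counted in the 3′UTR.

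Levels are given as RPM, reads per library scaled to a common size with the TMM factors of edgeR. The liver identity of the libraries was checked first. The summed CDS level of 6 hepatocyte markers was 38883 to 54680 RPM. The sum of 5 pancreatic acinar markers was 2294 RPM in CT20 replicate 2 and at most 47.2 in the other 13 libraries. The sum of 5 Kupffer cell markers was 71.7 to 134 RPM, and that of 4 endothelial markers 97.6 to 150.1. In CT16 replicate 2, 100% of the nonzero 3′UTR counts were even numbers, so its counts may hold each read more than once and its depth may be lower than its total. With its counts halved, 353 3′UTRs met the rule and 12 were rhythmic, 6 of them among the 355.

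The structures the results turn on are shown first, as windows of 30 bases read from RefSeq's GRCm38.p6 genome, 5′ to 3′ on the strand given. Capitals mark the stop codon of the gene on the opposite strand, the start codon of the gene on the same strand, the stop codon of another transcript of the same gene, or the first 20 bases of a 5S ribosomal RNA gene. The last 3 windows show the 3′UTR owner's own stop codon in capitals.
Tmem38b 3′UTR, 5S ribosomal RNA, chr4:53860642-53860671, + strand: acctgaaattGTCTACAGCCATACCACCCT
Snx22 3′UTR, stop codon of Ppib, chr9:66066403-66066432, + strand: attgccaaggagTAGagagcctgggggacc
Nop9 3′UTR, stop codon of Cideb, chr14:55754421-55754450, - strand: cacctccactccTAAtgagatcatgctttg
Tardbp 3′UTR, stop codon of Masp2, chr4:148614507-148614536, + strand: ataagtaatttcTAAtttgcatcgtccaat
Sphk2 3′UTR, stop codon of Dbp, chr7:45709866-45709895, + strand: catgggacactgTGAggccacctccaccct
Abi3 3′UTR, stop codon of Phospho1, chr11:95831295-95831324, + strand: ctgaagatgtgtTGAagaccatcgcctgcc
Mfrp 3′UTR, start codon of C1qtnf5, chr9:44107746-44107775, + strand: ggggtcaccaccATGaggccacttcttgcc
Gm20604 3′UTR, start codon of Moap1, chr12:102743271-102743300, - strand: actctgagcaccATGacactgagacttcta
Mocs2 3′UTR, stop codon of another transcript, chr13:114828343-114828372, + strand: gcagctggtgacTAGtcaagtgtggtgcgc
Jagn1 3′UTR, stop codon of another transcript, chr6:113447706-113447735, + strand: aagaaacggaaaTGAagcctgcttgataaa
Bhlhe41 3′UTR, stop codon of another transcript, chr6:145862837-145862866, - strand: aaggacgcccccTGAacccagcattccttc
Psen2, own stop codon, chr1:180227558-180227587, - strand: cagctctacatcTGAcaggagccaggcgga
Eif1, own stop codon, chr11:100321347-100321376, + strand: gttcatgggtttTAAgtgcttgtggctctc
Pcsk4, own stop codon, chr10:80321791-80321820, - strand: gctgcagcagccTGAgcagcgactacactg

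The 355 3′UTRs held 59.8% of all 3′UTR reads of the 20428 transcripts. Their median share was 17.1%, against 0.778% over the 1588 3′UTRs with a mean of at least 5 reads. The share was above 50% in 90 of them and above 90% in 39. Just outside the limit were Mgrn1 at 4.98% and Gatd1 at 4.97%, and just inside were Commd7 at 5.03% and Mbnl2 at 5.07%. At the read limit, Gpr137b had a mean of 5.00 and Bbc3 of 5.14 reads per library, and Abhd10 and 4921517D22Rik fell outside with 4.93 each.

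The share was then read in mice not used to choose. When the rule was applied to the 7 first replicates alone, 354 3′UTRs passed, and 320 of these had a share of at least 5% in the second replicates too. The full rule took 366 3′UTRs in the second replicates, and 294 passed in both, which is 83.1% of the first set and 80.3% of the second. Of the 355, 141 had a share of at least 5% in all 14 libraries.

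**Figure D1:**
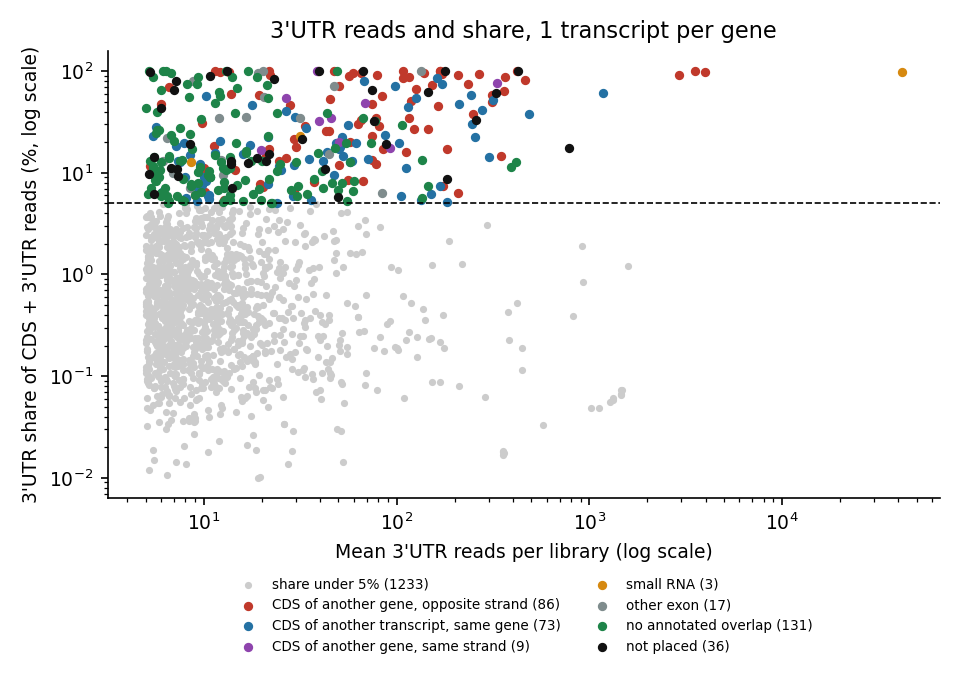
Mean 3′UTR reads per library against the 3′UTR share of CDS and 3′UTR reads, both on log axes, for 1588 transcripts (at least 5 3′UTR reads per library on average). Each point is 1 gene, the dashed line is the 5% limit, and colours show what the 3′UTR overlaps; most of the highest points on the right lie over a CDS on the opposite strand, and the farthest right is Tmem38b.

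The chosen 3′UTRs were then placed on the genome. A location with matching lengths was found for 319 of them, and the other 36, with 42208 reads, could not be placed. Annotated coding sequence lay under many: 168 of 319 (52.7%) overlapped a CDS of another transcript by at least 1 nt. The same was true of 7.54% of the 1101 placed 3′UTRs with enough reads and a share under 5%, and of 3.81% of all 16630 placed 3′UTRs. Each 3′UTR was put in 1 class, with a CDS of the same gene taken first, then a CDS on the opposite strand, then a CDS of a different gene on the same strand. The 3 classes held 73, 86 and 9 of the 168. With 6 of the 73 that also lie over an opposite-strand CDS, such as Tardbp, 92 3′UTRs did so in all. Of the remaining placed 3′UTRs, 3 held a small RNA gene, 17 overlapped other exons and 131 (41.1%) overlapped nothing in the RefSeq annotation.

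**Figure D2:**
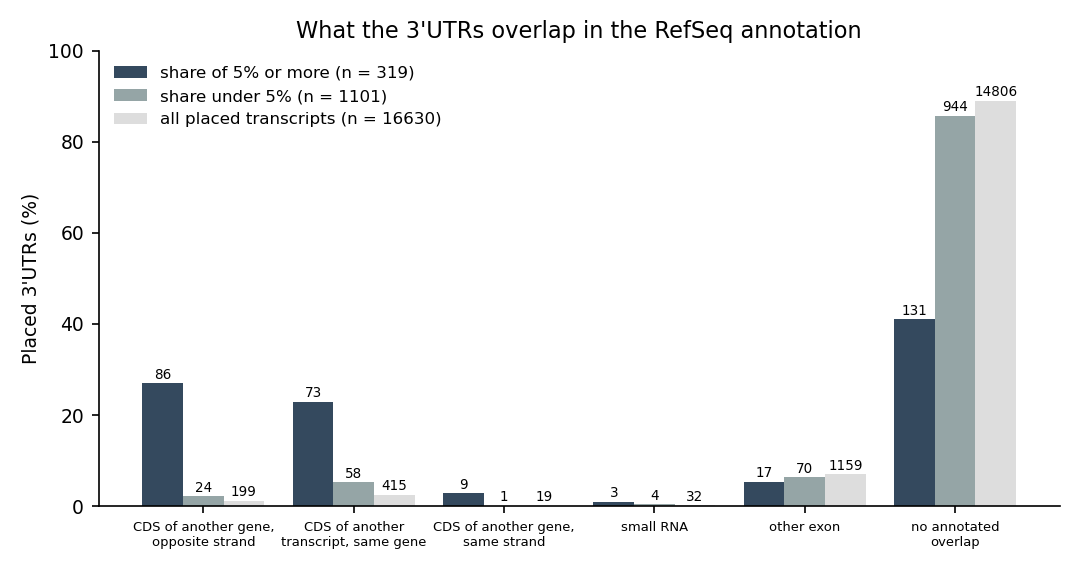
Percent of placed 3′UTRs in each overlap class for those with a share of at least 5% (n = 319), those with at least 5 mean reads and a lower share (n = 1101), and all placed transcripts (n = 16630). Numbers above the bars are counts; each 3′UTR is in 1 class, and the class of opposite-strand CDS holds 86 of the first set, 24 of the second and 199 of the third.

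A single 3′UTR, that of Tmem38b (an ion channel of the endoplasmic reticulum membrane), held 584403 reads, or 33.4% of all 3′UTR reads. The annotation puts a 5S ribosomal RNA gene of 119 nt inside it, at chr4:53860652-53860770, of which the first bases are printed above. Of the 1891 stretches of 28 nt in this 3′UTR, 93 occur in an annotated small RNA gene. The 5S gene inside the 3′UTR was among the genes searched, so its matches to itself are counted. The level ranged from 279 to 1809 RPM over the 14 libraries, median 947, while the CDS of Tmem38b stayed between 8.04 and 12.2.

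The Tmem38b 3′UTR reads differed between the 2 mice of each time. From CT0 to CT24 the first replicates had 338, 381, 279, 355, 1044, 390 and 687 RPM. The second replicates had 1053, 1101, 1050, 1656, 1809, 1160 and 851 RPM. The second replicate was higher at 7 of 7 times, by 1.43 ± 0.66 on the log2 scale (SD over the 7 times), or 2.69-fold. This difference was noticed in the values and is given as a description. In the edgeR fit of the 24 h rhythm the same reads had an adjusted p = 0.999.

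The other small RNA genes lay in Aopep and Ctdsp2. The 3′UTR of Aopep, an aminopeptidase gene, holds the microRNA gene Mir3074-1 and had 440 reads (22.9% of CDS plus 3′UTR). That of Ctdsp2, a phosphatase gene, holds Mir546 and had 120 reads (12.6%).

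The 86 3′UTRs over a CDS on the opposite strand came next, with 261231 reads in all and a median share of 41.9%. Lrrc61 had 55598 3′UTR and 741 CDS reads, Snx22 (a sorting nexin) 49579 and 4, and Nop9 40933 and 3585. Their 3′UTRs run across 204, 308 and 474 nt of the coding sequence of genes strongly translated in liver. These are Rarres2, which encodes the secreted protein chemerin, Ppib, a prolyl isomerase of the endoplasmic reticulum, and Cideb, a lipid droplet protein. The 3′UTR of Snx22 was at 52.3 to 94.9 RPM, median 71.6. Its own CDS had 0 to 3 reads per library. The 3′UTR of Lrrc61 was at 56.6 to 103 RPM and its CDS at 0.173 to 1.77, and for Nop9 the ranges were 48.4 to 68.3 and 3.78 to 6.11. In all 3 genes the lowest 3′UTR level was above the highest CDS level. The genes were chosen by the same reads, so this separation follows from the choice and is a description.

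The read numbers were then set against those of the neighbour, in 3′UTRs chosen by the number expected from the neighbour and not by their share. The transcript of each gene was still the one with most reads, 3′UTR reads included. Expected reads were the neighbour's CDS reads per nt multiplied by the overlapping CDS nt, and the 3′UTRs with at least 70 expected reads were taken where both transcripts could be placed (n = 101, of which 78 are among the 355). Casp9, described with the rhythms, is not in this set, because the transcript of its neighbour Cela2a could not be placed. The log2 of observed over expected reads had a median of -0.01, with quartiles of -0.28 and 0.23. In 91 of the 101, the observed number was within a factor of 2 of the expected one. Per library, the median log2 value ran from -0.17 to 0.00. The 78 pairs with fewer than 70 expected reads, of which 4 are among the 355, differed from this. Their median was 0.92, 36 of the 78 were within a factor of 2, and 3635 reads were observed against 1165 expected. Usp34, a ubiquitin protease, had 1101 against 60.8, and Ttc14, whose 3′UTR also lies over a CDS of its own gene, had 418 against 0.969.

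For Lrrc61, 55598 reads were observed and 54268 expected from Rarres2. For Snx22, the values were 49579 and 44895 from Ppib, and for Tubgcp6 (a microtubule nucleation protein) 6511 and 5785 from the selenoprotein gene Selenoo. Ctsa, a lysosomal enzyme with 43641 CDS reads of its own, had 2918 observed against 2841 expected from Pltp, the phospholipid transfer protein. These counts cover 204 to 499 nt of shared sequence. Bbof1, a gene of motile cilia with 23 CDS reads, had 5931 reads against 8846 expected from 99 nt of Aldh6a1, an enzyme of valine breakdown. Nop9 had 40933 against 52440 expected from Cideb.

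Of the 10 that missed the factor of 2, 4 were above it and 6 below. The largest excess was in Eif4a2, an RNA helicase of translation initiation, with 2348 reads against 92.5 expected from Rfc4. The 3′UTR of Eif4a2 also overlaps 145 nt of a CDS of its own gene. Tardbp, an RNA-binding protein, had 16508 reads against 36146 expected from Masp2, a complement protease. Gm6034 and Ccdc73 had 0 reads against 21029 and 165 expected. Neither was among the 355, nor were Mettl5 (63 observed, 141 expected), Gtf3a (30 and 131) and Pigb (12 and 113).

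**Figure D3:**
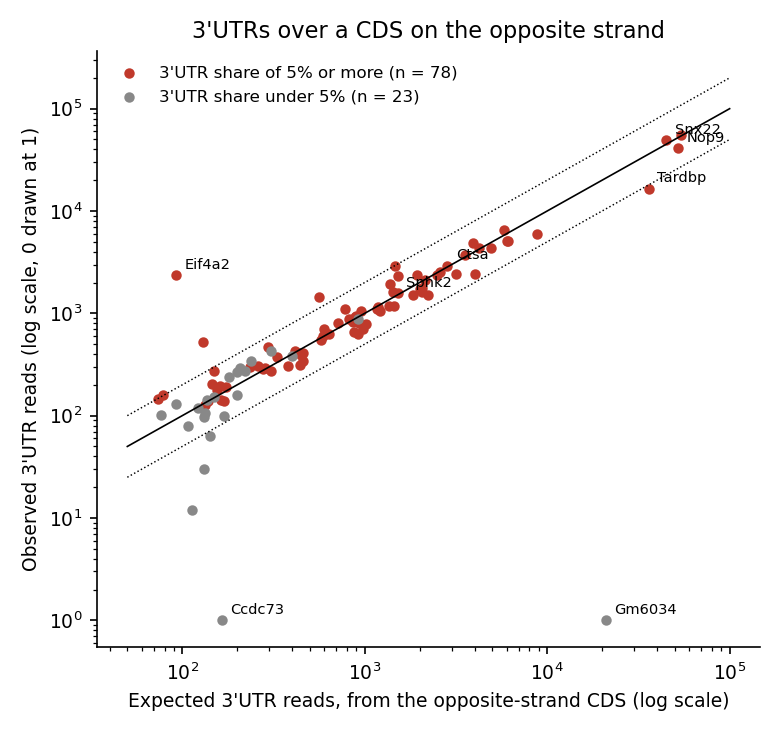
Observed 3′UTR reads against reads expected from the CDS on the opposite strand, summed over 14 libraries, both on log axes, for the 101 3′UTRs with at least 70 expected reads. The solid line marks equality and dotted lines a factor of 2; 91 of the 101 points lie between the dotted lines, and Gm6034 and Ccdc73 had 0 reads.

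The values were also compared from library to library. For 76 of the 101 pairs the neighbour's CDS and the own CDS both had a mean of at least 20 reads and the 3′UTR at least 5. The SD over libraries of the log2 ratio of 3′UTR to neighbour CDS was smaller than that of 3′UTR to own CDS in 65 of these 76. Its median was 0.59 for the neighbour and 0.84 for the own CDS. The SD of such a ratio grows as counts fall. In some pairs the own CDS had far fewer reads than the neighbour, as in Cyren (283 against 3563), and in others more, as in Ctsa (43641 against 13851). The SDs therefore do not separate following of the neighbour from counting error. Whether the strand of a read was used in the region counts is not given in the sources used here. Reads from the 2 strands can therefore not be told apart here.

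Zero CDS reads were found for 16 of the 355 transcripts, and a count of 0 allows up to 3 reads. Among them were Foxp3, the master regulator of regulatory T cells, with 661 3′UTR reads over 345 nt of Ccdc22 coding sequence (876 expected), and Gpr17, a receptor of the oligodendrocyte lineage, with 1514 reads over Lims2 (2227 expected). Far2 (549 reads, over Ergic2) and Samd11 (304 reads, over Noc2l) were of the same kind. Grk1, a kinase of the retina, had 182 reads and no annotated overlap, as had Slc6a18 (89), Nmrk2 (73), Psmb11 (86), Zfp488 (687) and Psg23 (238). The last 3 share stretches of 28 nt with coding sequence elsewhere. Gng3 (284 reads) lies over other exons of Bscl2. The others were Zfp385c (160) over 15 nt of Nkiras2, Mfrp, and 3 that could not be placed: B3gat2 (939), Vmn1r58 (185) and a transcript with no symbol (5952).

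In 73 3′UTRs the overlap was with a CDS of the same gene. A gene with alternative ends can have a transcript whose short CDS stops early, so that coding sequence of the longer form is counted as 3′UTR. For 64 of these genes, other transcripts are in the files, and in 57 of the 64 at least 1 of them had a 3′UTR share under 5%. Jagn1, which is needed for protein secretion, had a share of 52.4% in the transcript with a CDS of 206 nt and of 0.154% in the transcript with a CDS of 554 nt. Zfp703, a zinc finger repressor, went from 85.9% (386 nt) to 0.155% (1787 nt). Nxf1, the main mRNA export receptor, went from 47.5% to 0%, with 0 of 6180 reads.

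Xbp1, a transcription factor of the unfolded protein response, is made from an mRNA with a spliced intron that shifts the frame. Its transcript with most reads had a CDS of 809 nt and a share of 6.18%, and the other transcript a CDS of 1122 nt and a share of 0.287%. Srsf1, a splicing factor, went from 30.3% to 0.396%. Vps25, of the ESCRT machinery, had 22.7% and 0.253%, and Txnl4a, a spliceosome protein with a CDS of 194 nt in the transcript with most reads, had 41.0%, and 0.572% in the lowest of its 3 other transcripts. The choice of transcript did not bring the share under 5% in all genes: Aph1a, a subunit of gamma-secretase, had 53.9% and 53.8% in its 2 transcripts, and Tardbp had 60.3% and 63.8%.

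**Figure D4:**
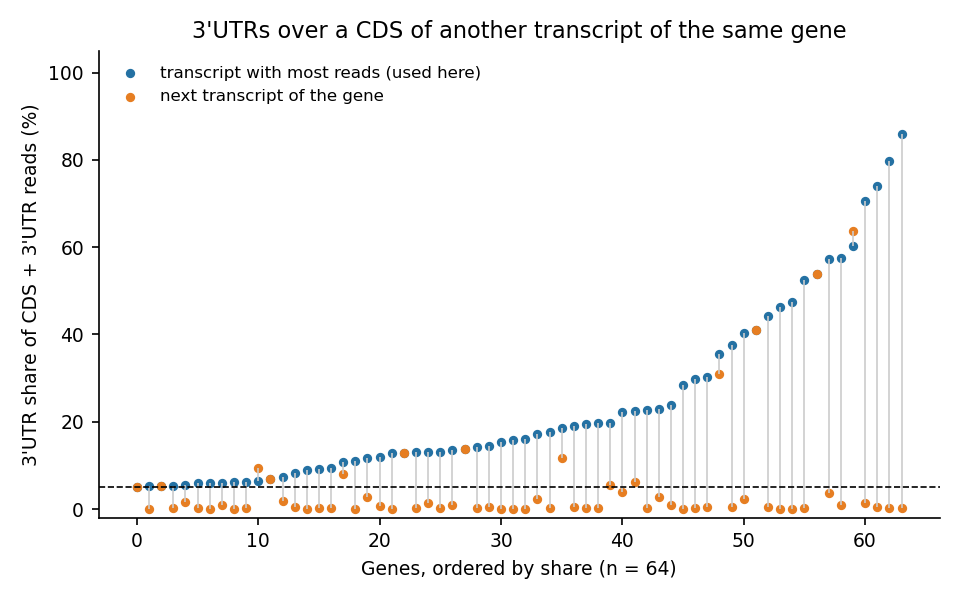
3′UTR share of CDS and 3′UTR reads (percent) for the 64 genes whose 3′UTR overlaps a CDS of another transcript of the gene. Blue points are the transcript with most reads, orange points the other transcript with most reads, and the dashed line is 5%; for Zfp703 the values are 85.9% and 0.155%.

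Some mRNAs are known to carry 2 reading frames. Of 9 such genes looked up in the files, 5 had a mean of at least 5 3′UTR reads and 4 were among the 355. Over all genes, 355 of 1588 with so many reads met the rule. The 9 include partners on the same mRNA, such as Snurf and Snrpn, so they are not separate cases. Mocs2, whose mRNA encodes both subunits of molybdopterin synthase, had 6848 3′UTR reads and 11390 reads in its first frame, a share of 37.5% that ran from 28.3% to 50.1% over the libraries. Its 3′UTR contains 490 nt of the second frame, with the stop codon printed above. The transcript listed with that second frame as CDS had a share of 0.368%. Mocs1, of the same molybdenum cofactor pathway, had 14.2% and 0.190% in its 2 transcripts.

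Snurf and Snrpn share an imprinted mRNA, with the splicing protein SmN encoded downstream. The 3′UTR of Snurf had 961 reads, against 901 expected from the Snrpn CDS. Mfrp had 0 CDS reads and 541 3′UTR reads, against 456 expected from C1qtnf5, whose start codon is shown above. The median log2 of observed over expected was 0.13 in the 8 same-strand pairs with at least 70 expected reads, and all 8 were within a factor of 2. On the same strand, a read in the shared nt can be counted both in the 3′UTR and in the neighbour's CDS. The overlap was 723 of 730 CDS nt for Snurf and 732 of 734 for Mfrp, so agreement there was largely fixed in advance. Nothing is concluded from it. Dph1, of diphthamide synthesis, had 1293 observed and 1318 expected from Ovca2, and Gm20604 had 642 and 574 from Moap1. The largest of this class was Chtf8, with 4637 reads and a share of 75.7%, over 1598 nt of Derpc.

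Among the 36 3′UTRs that could not be placed, Sult1a1, a sulfotransferase, had most reads, 11027 in the 3′UTR and 51207 in the CDS (17.7%). Its share was narrow over the libraries, from 15.5% to 19.9%. Pip4p1, a lipid phosphatase, had 61.4%, Jmjd8 32.9% and Sla2, an adaptor of lymphocytes, 99.7%. Tymp, thymidine phosphorylase, had 8.64%, with 3.54% in the lowest and 26.5% in the highest library. The 17 over other exons had 6893 reads in all. Mfsd4b5 (1881 reads, 1 CDS read), Lrrc58 (1174 reads, 6.38%) and Selp, an adhesion receptor (664 reads, 70.7%), had most of them.

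No such overlap was annotated for 131 placed 3′UTRs. In 8 of these, the GENCODE vM21 annotation puts CDS of the same gene, and in 2 CDS of another gene. A further 22 share at least 10 stretches of 28 nt with the CDS of another gene. Such stretches were found in 17.6% of the 131 and in 5.46% of all 14806 placed 3′UTRs without an annotated overlap. This leaves 99 3′UTRs.

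The 99 had a median share of 10.4%. Their CDS was at most 600 nt long in 55 (55.6%), and they had a median of 1434 CDS reads over the 14 libraries. Both values are bound up with the rule, since a CDS with few reads makes a share of at least 5% easier to reach, and they are given as a description. The 3′UTR density was 0.0528 of the CDS density in the median, per nt, and at least equal to it in 8 that had CDS reads. The own stop codon was TGA in 60 (60.6%), TAA in 21 and TAG in 18, and over all placed transcripts TGA was found in 50.6%, TAA in 26.4% and TAG in 23.1%.

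Psen2, a presenilin of the gamma-secretase complex, had the most reads of these: 5806 in the 3′UTR and 39287 in the CDS. Its share ran from 5.77% to 17.4%. Eif1, an initiation factor that guards start codon choice, had a share of 7.40%, and Ptms, a small acidic protein, of 5.61%. Naa60, an acetyltransferase of the Golgi, had 13.4% in all, with 5.23% in the lowest and 20.5% in the highest library. Gm7030, a predicted gene, had 5520 reads in a 3′UTR of 31 nt, and all 4 stretches of 28 nt in it also occur in H2-K1, so its reads cannot be assigned with certainty. Coa5, a cytochrome oxidase assembly factor with a CDS of 228 nt, had 32.4% (21.9% to 43.5% over libraries), and Nlrp12, a sensor of innate immunity, 19.8% (8.80% to 31.4%).

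Selenoproteins read a UGA codon as selenocysteine with the help of an element in their 3′UTR. Of 24 selenoprotein genes, 11 had a mean of at least 5 3′UTR reads and 1 was among the 355. Over all genes, 355 of 1588 with so many reads met the rule, and 11 genes are too few to compare. The 1 was Selenok, a membrane protein of the endoplasmic reticulum, with 1493 3′UTR and 3547 CDS reads. Its share was 29.6% and ran from 11.5% to 48.3%. Selenop, the plasma selenium carrier with the highest 3′UTR count of the list (12760), had a share of 1.91%.

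Of 17 genes known for stop codon readthrough, 4 had a mean of at least 5 3′UTR reads and 0 were among the 355. Since 355 of all 1588 3′UTRs with so many reads met the rule, 0 of 4 says little about these genes. Their shares were 1.27% for Mdh1 (malate dehydrogenase), 1.67% for Vegfa, 1.74% for Acp2 and 0.334% for Sacm1l. A TGA stop followed directly by CTA, the sequence TGACTA searched at the stop codon on the transcript strand, was present in 4 of the 319 placed 3′UTRs (1.25%): Snx22, Aph1a, Ccser2 and Eif4ebp2. It was present in 51 of 16630 (0.307%). Of 5 genes of ribosomal frameshifting 1 had a mean of at least 5 3′UTR reads, and of 4 with iron-responsive 3′UTR elements 0 had, so these lists could hardly have a member and nothing is read from them. Peg10, a frameshifted retrotransposon gene, had a share of 42.9% but a mean of 4.93 reads.

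The circadian question was whether 3′UTR reads followed the time of day. Reads of each 3′UTR were fitted with a 24 h cosine in edgeR (quasi-likelihood F test, Benjamini-Hochberg adjustment over all 1588), and 12 of 1588 (0.756%) were rhythmic. These included 6 of the 355 (1.69%): Sphk2, Casp9, Abi3, Psen2, Bhlhe41 and Pcsk4. The number that passed an unadjusted p of 0.05 was 32 of 355, or 9.01%, and 95 of 1588, or 5.98%. The minimum of reads and the share can be met through the times at which a 3′UTR is high, as by Casp9 in 1 library, and by Pcsk4 and Sphk2 mainly at CT8 and CT12. Such a 3′UTR had to vary, so nothing is read from these counts against those over all 3′UTRs.

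**Figure D5:**
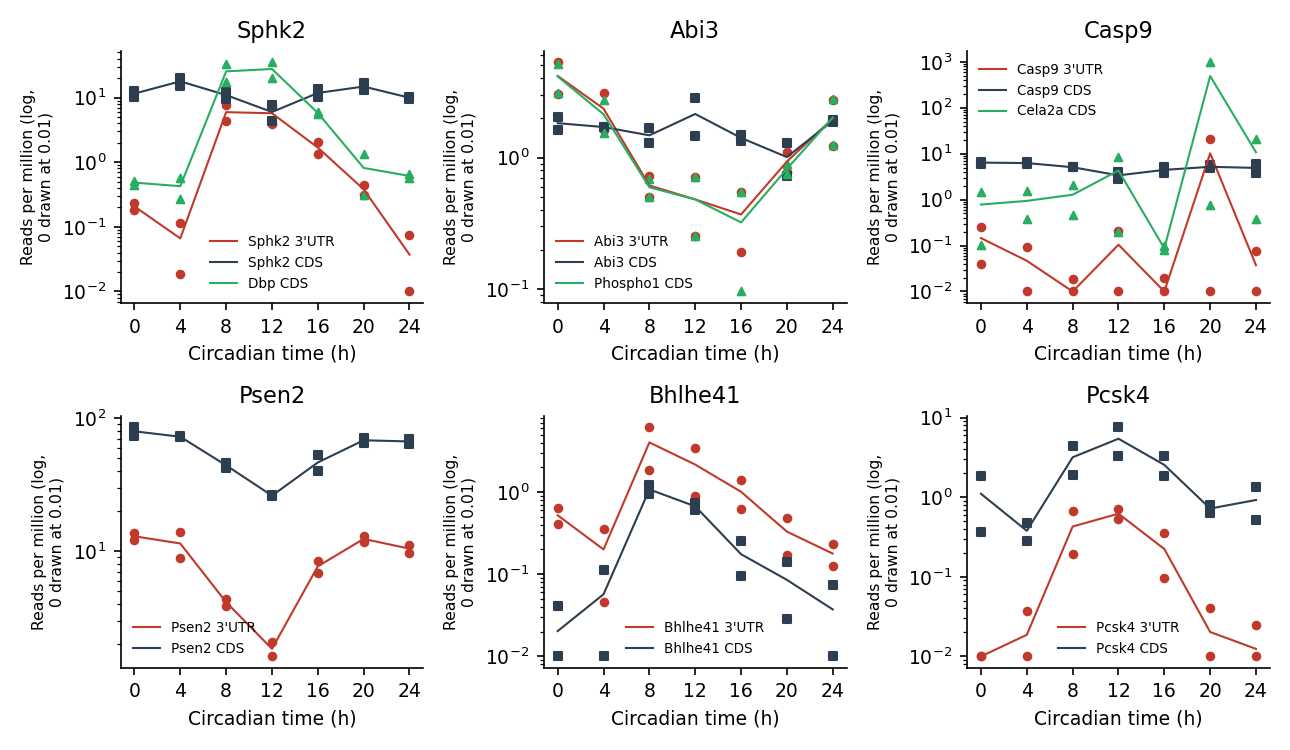
RPM (log axis, 0 drawn at 0.01) against circadian time for the 6 rhythmic 3′UTRs, with their own CDS and, for the 3 over a CDS on the opposite strand, the neighbour's CDS. Points are single libraries (2 per time) and lines the means; the Casp9 3′UTR stands out at CT20 in 1 library, at 20.4 RPM.

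Sphk2, a sphingosine kinase, had the strongest rhythm. Its 3′UTR was at 0.183 and 0.231 RPM at CT0, 0.0186 and 0.114 at CT4, 7.56 and 4.34 at CT8, and 3.95 and 7.48 at CT12. It then had 1.35 and 2.02 at CT16, 0.316 and 0.446 at CT20, and 0.0745 and 0 at CT24. The libraries of CT8 and CT12 were above all others, with no overlap. The fitted peak was at 11.6 h, and peak and trough of the curve differed by 6.20 (log2; edgeR adjusted p = 2.67e-09).

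The 3′UTR of Sphk2 lies across 216 nt of the coding sequence of Dbp, a clock output transcription factor of the PAR bZIP family. The Dbp CDS rose from 0.483 ± 0.0511 RPM at CT0 to 27.7 ± 10.7 at CT12 (SD, n = 2), with its peak at 11.1 h and a difference of 6.49 (edgeR adjusted p = 1.05e-06). The Sphk2 CDS was at 5.98 ± 2.38 at CT12 and 17.8 ± 3.68 at CT4 and did not pass the test (edgeR adjusted p = 0.372). Summed over libraries, 1567 3′UTR reads were observed and 1522 expected from Dbp.

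Abi3, an adaptor of actin regulation, had its highest 3′UTR levels at CT0, with 3.03 and 5.29 RPM, 1.62 and 3.08 at CT4, and 2.73 and 1.22 at CT24. It had 0.50 and 0.727 at CT8, 0.253 and 0.709 at CT12, 0.547 and 0.192 at CT16, and 1.09 and 0.77 at CT20. All 6 libraries of CT0, CT4 and CT24 were above the other 8. The peak was at 1.45 h, with a difference of 3.20 (edgeR adjusted p = 2.51e-05). The CDS of Phospho1, a phosphatase known from bone mineralization that lies on the other strand, gave nearly the same values, 3.09 and 5.16 at CT0, a peak at 1.49 h and a difference of 3.28 (edgeR adjusted p = 0.000923). The Abi3 CDS did not pass (edgeR adjusted p = 0.752).

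Casp9, an initiator caspase of apoptosis, passed through 1 library. Its 3′UTR had 1006 reads in CT20 replicate 2 and 0 in CT20 replicate 1, and 0 to 13 reads in the other 12 libraries. The 3′UTR overlaps 18 nt of Cela2a, a pancreatic elastase gene, which had 48389 CDS reads in CT20 replicate 2 and 4 to 999 in the rest. In that library 1057 reads were expected from Cela2a. In CT24 replicate 2, with 999 Cela2a reads, 21.8 were expected and 0 observed, and in CT0 replicate 2, 1.66 were expected and 13 observed. CT20 replicate 2 is also the library with the high sum of pancreatic acinar markers. The edgeR adjusted p was 2.51e-05, and the DESeq2 likelihood ratio test gave an adjusted p = 0.494. Without CT20 replicate 2 the Casp9 3′UTR fell below the read minimum.

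Psen2 was rhythmic in both regions. The 3′UTR was at 13.8 and 12.1 RPM at CT0, 13.97 and 8.91 at CT4, 3.88 and 4.42 at CT8, and 2.08 and 1.63 at CT12. It was 6.91 and 8.50 at CT16, 13.0 and 11.8 at CT20, and 11.2 and 9.70 at CT24. Both CT12 libraries were below all others. The fitted peak was at 23.0 h with a difference of 2.26 (edgeR adjusted p = 0.000174), and the CDS peaked at 0.02 h with a difference of 1.30 (edgeR adjusted p = 0.000148). The ratio of both did not pass (limma adjusted p = 0.855).

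Of 19 clock genes, 4 had a mean of at least 5 3′UTR reads, and 1 of them, Bhlhe41, was among the 355. Over all genes, 355 of 1588 with so many reads met the rule. Bhlhe41, a repressor of the clock also named Dec2, had 945 3′UTR reads and 240 CDS reads in the transcript with a CDS of 401 nt. The 3′UTR holds 887 nt of the CDS of its other transcript, which had a share of 0.169%. Its 3′UTR was at 6.16 and 1.86 RPM at CT8, 0.891 and 3.42 at CT12, and 1.39 and 0.625 at CT16, and between 0.0456 and 0.635 in the other libraries. The CDS was at 0.609 to 1.21 RPM at CT8 and CT12 and at most 0.254 elsewhere. The 3′UTR reads peaked at 10.5 h, with a difference of 3.61 (edgeR adjusted p = 0.000182), and the CDS reads at 10.8 h (edgeR adjusted p = 0.00707). Pcsk4, a proprotein convertase known from sperm, peaked at 11.6 h in the 3′UTR (edgeR adjusted p = 0.00779) and at 12.1 h in the CDS (edgeR adjusted p = 0.00811). It had 44 and 10 3′UTR reads at CT8, 36 and 34 at CT12, 18 and 4 at CT16, and 0 to 2 at the other times. Without CT12 replicate 2, its edgeR adjusted p was 0.0678.

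The neighbours' rhythms were then asked for from the other side. Of the 88 3′UTRs whose overlapped neighbour could be tested, 7 had a rhythmic neighbour CDS. Over all genes tested, 1179 of 12257 CDS (9.62%) were rhythmic, so nothing is read from the number 7. The 7 were Sphk2, Abi3, Acat3, Stk25, Tcp1, Eri2 and Nr2c2ap. In all 7 the fitted 3′UTR peak was within 3 h of the neighbour's CDS peak (median difference 1.45 h). It was within 3 h of the own CDS peak in 1 of the 7 (median 5.2 h). The 7 were chosen for a rhythmic neighbour CDS, while the own CDS did not have to be rhythmic and was not in Sphk2 and Abi3. Both counts are therefore not an even comparison. Only Sphk2 and Abi3 of these passed the 3′UTR test, so the other 5 3′UTR peaks are poorly determined. Acat3 and Tcp1, an acyl transferase and a chaperonin subunit, each have a 3′UTR over the other's CDS: Acat3 3′UTR reads peaked at 15.1 h, close to 16.1 h for the Tcp1 CDS and far from 0.37 h for the Acat3 CDS, with an edgeR adjusted p of 0.0966 for the 3′UTR. A pair outside the 7 went the other way. The Nrg4 3′UTR was at 2.38 RPM at CT0 and 6.58 at CT12, and the CDS of its neighbour Fbxo22 at 15.3 and 14.8. The Nrg4 CDS, with few reads, was at 0.252 and 0.665 RPM. How many pairs do so was not counted.

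The CDS reads of the same genes were tested alike. With a mean of at least 5 CDS reads, 1179 of 12257 genes (9.62%) passed the edgeR test, and 31 of the 311 tested here (9.97%). Wdr6, a tRNA modification factor, had the lowest adjusted p (7.95e-05, edgeR, peak at 9.04 h). Of the factors that end translation, recycle ribosomes or rescue stalled ones, 22 could be tested and 2 passed, Rack1 (edgeR adjusted p = 0.005, peak at 17.3 h) and Upf1 (edgeR adjusted p = 0.037, peak at 18.4 h). The release factor genes Etf1 and Gspt1 and the recycling factor Abce1 had edgeR adjusted p values of 0.163, 0.776 and 0.446.

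The ratio of 3′UTR to CDS reads was tested with limma on log2 values with a pseudocount of 0.5. Of 1544 genes with a mean of at least 5 reads in both regions, 1 passed (0.0648%), and 0 of 311 among the 355, of which 13 (4.18%) had an unadjusted p below 0.05, against 75 of 1544 (4.86%). Sphk2 had the lowest p of these (limma adjusted p = 0.0598). An edgeR fit of 3′UTR reads with the CDS reads as offset called 8 genes, 7 of them among the 355.

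The summed 3′UTR level differed between the classes and over the libraries. The 86 3′UTRs over an opposite-strand CDS together had 351 to 407 RPM (median 373). The 73 over a CDS of their own gene had 120 to 152, and the 131 without overlap 52.9 to 87.1. The 36 that could not be placed had 47.9 to 76.2, and the 17 over other exons 6.48 to 13.1. Over the libraries, the median share of the 355 stayed between 14.7% and 19.1%.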

How the data were processed

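The authors digested liver lysates with RNase I, pelleted ribosomes through sucrose, cloned fragments of 26 to 34 nt, depleted rRNA cDNA with oligos, removed reads that aligned to rRNA with Bowtie2 2.1.0.0, mapped the rest to mm10 and kept exact matches with SAMtools 0.1.19.0. The deposited values are whole-number counts of reads for each transcript and region (leader, CDS, 3′UTR), without normalization by the authors; the methods took reads of 26 to 32 nt with a single genome location for density profiles, and whether the region counts used the same reads, and their strand, is not given in the sources used here. The last pair of mice is CT24 in the sample names and CT00 in a label field, and the name was used. CT16 replicate 2 was sequenced in more than 1 run, deposited as a single table and counted as 1 library.

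The 3′UTRs and all gene lists were chosen with earlier results of these data known. Of 28167 transcripts, 27840 had a gene in the RefSeq table. Locations came from GRCm38.p6, with CDS and 3′UTR lengths within 1 nt per exon. Rhythms (24 h) were tested with edgeR 4.0.16 and limma 3.58.1 in R 4.3.3, with TMM factors from whole-transcript counts, and an adjusted p under 0.05 was called; DESeq2 1.42.0, other scalings, minimums, pseudocounts and leaving out each library were the alternatives. RPM use the same factors. The rhythm scripts were tested on simulated data. Of 100 transcripts given a peak-to-trough difference of 1 (log2), the edgeR 3′UTR test called 5 and the limma ratio test 2. At a difference of 2 they called 62 and 34 of 100, so both tests miss many rhythms of this size. Named were the 12 3′UTRs with most reads, the 10 with the highest share, rhythmic ones, list members, those at the limits and up to 6 per class; further genes were chosen after their values were seen. Expected reads and class counts with other annotations were added after seeing the data. Replicates are separate mice.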

Additional observations from a re-analysis of the deposited data

How the results depend on the processing

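The number of 3′UTRs that met the rule was 355, and 349 to 359 when each library was left out. It was 192 with a minimum of 20 reads and 187 without 3′UTRs over annotated CDS, and moved by less than 1.5 times under the other alternatives of the rule. The number of rhythmic 3′UTRs, 12, was 25 with no minimum, 7 with a minimum of 20 reads, and 8 to 17 with a library left out. The 6 among the 355 became 5 to 9 with a library left out. Without CT20 replicate 2, 8 of all 3′UTRs and 5 of the 355 were called, and without CT20 replicate 1, 17 and 9. For CDS reads, 906 to 1309 genes and 25 to 33 of those here were called with a library left out. The ratio test called 2 genes with a pseudocount of 2, 3 with a minimum of 1 read, 2 with a trended prior and 8 with the edgeR offset. Among the 355 it called 1 with a pseudocount of 2, 1 with a minimum of 20 reads, 1 with a minimum of 1 read, 1 with the trended prior and 7 with the edgeR offset. Leaving out a library gave 1 to 2 genes, and 0 to 1 of the 355, where the 1 came without CT4 replicate 1. Sphk2 was the gene in each setting that called 1 of the 355, and its adjusted p (limma or edgeR) for the ratio ran from 5.71e-08 to 0.597 over all settings. Over genes with a mean of at least 10 reads, the differences between the mice of a time correlated weakly between times (r from -0.12 to 0.30 over 21 pairs of times, 4 above 0.1), so the numbers are not taken to pair the libraries, although the Tmem38b 3′UTR differed the same way at 7 of 7 times. With the replicate block, 15 3′UTRs were rhythmic, 8 of them among the 355, and the ratio test called 1 gene and 0 of the 355. The median log2 of observed over expected reads stayed between -0.04 and 0.03 in the settings tried. There were 2 mice per time, and a 3′UTR that missed the threshold is not shown to lack a rhythm. PCR copies cannot be told from separate molecules, so counts carry more error than counting alone.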
